A study of Homo sapiens with 6 samples.

Results

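ANGPTL4 and 9 genes of the peroxisome proliferator-activated receptor (PPAR) and fatty acid use pathway were followed in HCCLM3 cells, a human hepatocellular carcinoma line known for its metastatic capacity. The 10 genes are the receptors PPARA, PPARD and PPARG, the secreted protein ANGPTL4, the lipid droplet proteins PLIN2 and PLIN3, the carnitine transferases CPT1A and CPT2, and the mitochondrial enzymes ACADVL and HADHA. They were selected by name out of 58302 listed genes, and the choice was made with the lower ANGPTL4 level in the same comparison already known. Their differences between the groups are therefore given as a description, with no test. Of the 10 genes, 7 averaged 1 FPKM or more over the libraries (FPKM counts fragments per length of gene and per size of library) and entered the fits across all genes. CPT2, PPARA and PPARG were below that level and are given by their values alone.

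Antisense oligonucleotides (ASOs), synthetic strands that bind a chosen RNA and lead to its loss, were introduced into the cells by transfection. The SCARNA13 ASO group targeted SCARNA13, a small RNA of Cajal bodies, and the Control ASO group received a control oligonucleotide, with 3 libraries each. All libraries came from the same line, and the labels name no other treatment, dose or time. The study's stated purpose was to find genes that respond when SCARNA13 is lowered. Separate cultures are not stated in the labels, so errors measure the spread between libraries, which may be technical.

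ANGPTL4 RNA was lower with the SCARNA13 ASO than with the Control ASO in each of the 3 replicate pairs, at 0.441, 0.414 and 0.375 times the control FPKM. PLIN2 was also lower in each pair, at 0.848, 0.835 and 0.718 times the control FPKM. The abundant PLIN3 and ACADVL, and CPT1A, stayed within 0.17 log2 units of the control in each pair. PPARD and HADHA were higher in each pair, by 0.09 to 0.37 log2 units. ANGPTL4 thus stood apart in size from PLIN2, PLIN3, ACADVL, CPT1A, PPARD and HADHA, which in part restates how it was chosen. PPARA, which was not tested, was 2.46 times the control FPKM in pair 3, on 76 reads against 26.

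PPARs are nuclear receptors that bind fatty acids and their derivatives and act on DNA together with a retinoid X receptor. In liver, PPARA is known for switching on fatty acid oxidation during fasting, while PPARG is best known from fat cells and PPARD is present in many tissues. ANGPTL4 and PLIN2 are classical PPAR target genes in many cell types, and ANGPTL4 also responds to low oxygen and to glucocorticoids. ANGPTL4 protein blocks lipoprotein lipase, the enzyme that frees fatty acids from circulating triglycerides.

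The promoters of ANGPTL4 and PLIN2 are shown because both genes are known PPAR and hypoxia targets and both were lower in each pair. Each sequence runs 5′ to 3′ on the gene's strand, from 250 bases before the first listed RefSeq start to 50 bases after it, in GRCh38.p14. The ANGPTL4 window is chr19:8363905-8364204 on the plus strand and the PLIN2 window is chr9:19127443-19127742 on the minus strand. Capitals mark the core of the hypoxia response element (ACGTG or GCGTG, either strand), the GC box (GGGCGG, either strand) and the TATA box (TATAAA, gene strand only).
ANGPTL4: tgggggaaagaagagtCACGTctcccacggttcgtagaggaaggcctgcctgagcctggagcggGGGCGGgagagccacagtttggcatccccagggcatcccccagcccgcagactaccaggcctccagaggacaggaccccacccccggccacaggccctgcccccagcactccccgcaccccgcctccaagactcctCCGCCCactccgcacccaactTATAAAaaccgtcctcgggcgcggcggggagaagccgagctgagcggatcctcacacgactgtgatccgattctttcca
PLIN2: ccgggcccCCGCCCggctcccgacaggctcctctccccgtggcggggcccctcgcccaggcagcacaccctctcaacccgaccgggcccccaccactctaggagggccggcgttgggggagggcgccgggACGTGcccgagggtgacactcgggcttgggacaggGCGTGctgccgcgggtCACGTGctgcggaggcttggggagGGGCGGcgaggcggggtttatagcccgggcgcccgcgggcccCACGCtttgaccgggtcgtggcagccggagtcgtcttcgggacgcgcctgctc
Both windows were rich in G and C, with 66.3% in ANGPTL4 and 76.7% in PLIN2, against a median of 58.7% over 35116 RefSeq promoters.

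The ANGPTL4 window held TATAAA 29 bases before the start (position -29, where -1 is the last base before the start). TATAAA was present in 7.33% of the 35116 promoters and, of the 10 genes here, in ANGPTL4 alone. ACGTG was found at -234 in ANGPTL4, and at -120, -69 and -68 in PLIN2, where the last 2 are the overlapping strands of the same stretch. It occurred in 21.4% of promoters and in 3 of the 10 genes, the other one being PPARG. GCGTG was in PLIN2 at -85 and -3 and not in the ANGPTL4 window, and it occurred in 36.5% of promoters and 6 of the 10 genes. GC boxes lay at -186 and -50 in ANGPTL4 and at -242 and -45 in PLIN2. They occurred in 44.95% of promoters and in 7 of the 10 genes. The nuclear receptor core AGGTCA was in 13.8% of promoters and, among the 10 genes, in PPARG alone. The PPAR element searched, 2 copies of AGGTCA in the same direction split by 1 base on either strand, was in 8 promoters and in none of the 10. Those letters are simply not in these windows, and these matches describe sequence and not binding. All 10 genes matched the promoter table, and for genes with several listed starts the first was used.

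The libraries held between 20457474 and 25173559 reads assigned to genes. The targeted RNA was barely covered. SCARNA13 had 2, 3 and 2 reads in the SCARNA13 ASO libraries, against 6, 5 and 2 reads in the Control ASO libraries. Its lowering could not be judged on so few reads, and why they were few was not tested. Both libraries numbered 3 stood apart from the others, with correlations of 0.90 to 0.939 across genes with libraries of replicates 1 and 2. Those 4 correlated with each other at 0.988 to 0.994, and both replicate 3 libraries with each other at 0.980. The difference followed the base composition of transcripts, with GC-rich genes higher and GC-poor genes lower in replicate 3 of both groups. Values are therefore given also without replicate 3, and after a correction of each library for GC content. Markers of liver cells were nearly absent from this line. ALB, APOB and GPC3, which encode defining products of hepatocytes or liver tumours, had 0 reads in each library, and 1 of 8 hepatocyte markers reached 1 FPKM. The summed FPKM of the 8 was 1.53 to 2.82 in SCARNA13 ASO libraries and 1.62 to 3.22 in Control ASO libraries. Of fat cell markers 1 of 6 (LIPE) reached 1 FPKM and ADIPOQ had 0 reads, with sums of 1.03 to 3.90 FPKM in SCARNA13 ASO libraries and 1.31 to 5.15 FPKM in Control ASO libraries. Of leukocyte markers 1 of 6 (CD14) reached 1 FPKM and LYZ and CD163 had 0 reads, with sums of 2.26 to 3.29 FPKM in SCARNA13 ASO libraries and 2.89 to 6.89 FPKM in Control ASO libraries. None of 5 endothelial and 5 fibroblast markers reached a mean of 1 FPKM over the 6 libraries. Fibroblast sums were 1.30 to 1.63 FPKM in SCARNA13 ASO libraries and 0.929 to 1.57 FPKM in Control ASO libraries, and PDGFRB averaged 1.04 FPKM with the SCARNA13 ASO and 0.686 FPKM with the Control ASO. The part of these markers in the results was not tested.

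Per gene length, PLIN3 was the most abundant of the 10 genes in both groups, followed by ACADVL, ANGPTL4, HADHA, PPARD, PLIN2, CPT1A, CPT2, PPARA and PPARG. Mean levels ran from 169.7 FPKM for PLIN3 to 0.265 FPKM for PPARG in SCARNA13 ASO cells, and from 177.8 FPKM for PLIN3 to 0.306 FPKM for PPARG in Control ASO cells. In SCARNA13 ASO cells the ranges overlapped between the neighbours ANGPTL4 and HADHA, HADHA and PPARD, and PLIN2 and CPT1A. In Control ASO cells they overlapped between ACADVL and ANGPTL4, HADHA and PPARD, and PPARA and PPARG. ANGPTL4 exceeded HADHA in 1 of 3 SCARNA13 ASO libraries and in 3 of 3 Control ASO libraries. The length in the files is the union of all exons of a gene. Scaled to the longest transcript instead, PLIN2 averaged 20.6 FPKM in SCARNA13 ASO cells and 25.8 FPKM in Control ASO cells, which placed it at rank 6 in the SCARNA13 ASO group and rank 4 in the Control ASO group.

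**Figure D1:**
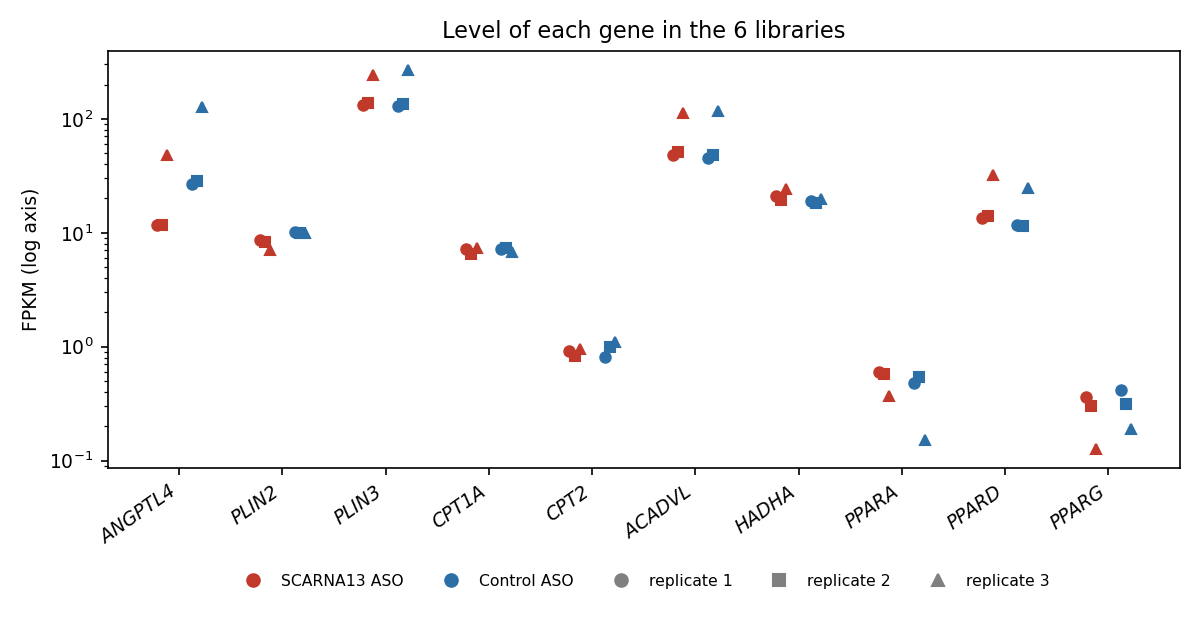
FPKM of the 10 genes on a log axis in each library, with SCARNA13 ASO in red and Control ASO in blue and the replicate number given by the symbol. ANGPTL4 was 11.8, 11.8 and 47.9 FPKM in SCARNA13 ASO libraries against 26.6, 28.5 and 127.7 FPKM in Control ASO libraries, and replicate 3 (triangles) was far above replicates 1 and 2 in ANGPTL4, PLIN3, ACADVL and PPARD.

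Among the receptors, PPARD made up nearly all of the PPAR RNA. It took 93.3%, 94.1% and 98.5% of the summed FPKM of the 3 receptors in SCARNA13 ASO libraries and 92.9%, 93.0% and 98.7% in Control ASO libraries. PPARD (chr6:35342558-35428191, plus strand, GRCh38) stood at 13.4, 14.1 and 32.2 FPKM in SCARNA13 ASO libraries, against 11.6, 11.5 and 24.9 FPKM in Control ASO libraries. Each SCARNA13 ASO library was above the control of its number, while the groups overlapped because both replicate 3 libraries were high. The differences within pairs were 0.20, 0.29 and 0.37 on the log2(FPKM + 0.5) scale, which is the scale of each log2 difference below.

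PPARA, the receptor known for hepatic fatty acid oxidation, was low throughout. PPARA (chr22:46150521-46243756, plus strand) had 0.599, 0.581 and 0.370 FPKM in SCARNA13 ASO libraries against 0.480, 0.543 and 0.15 FPKM in Control ASO libraries, from 510 reads with the SCARNA13 ASO and 410 with the Control ASO. It was higher in each pair and the groups overlapped. PPARG (chr3:12287368-12434356, plus strand), the adipogenic receptor, had 0.364, 0.303 and 0.127 FPKM in SCARNA13 ASO libraries against 0.414, 0.316 and 0.189 FPKM in Control ASO libraries. It was lower in each pair, on 83 reads with the SCARNA13 ASO and 95 with the Control ASO, and the groups overlapped. Both low receptors were lowest in replicate 3 of their group, opposite to PPARD.

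ANGPTL4 (chr19:8363289-8374373, plus strand, GRCh38) was the gene with the largest difference of the 10. Its level was 11.8, 11.8 and 47.9 FPKM in SCARNA13 ASO libraries, against 26.6, 28.5 and 127.7 FPKM in Control ASO libraries. These values rest on 792, 836 and 1850 reads in SCARNA13 ASO libraries and on 2011, 1886 and 4148 reads in Control ASO libraries. Within replicates 1 and 2 the groups did not overlap, while the SCARNA13 ASO library of replicate 3 was above both of the lower controls. The means were 23.8 ± 20.9 FPKM with the SCARNA13 ASO and 61.0 ± 57.8 FPKM with the Control ASO (SD, n = 3 each), so the spread across libraries was nearly as large as the means.

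The pairs gave a narrow range in place of that spread. The log2 difference of ANGPTL4 was -1.15, -1.24 and -1.40 in pairs 1, 2 and 3. With group as the only term, limma-trend estimated -1.26 ± 0.814 (SE), and with the replicate number as a block the same difference had an SE of 0.0785. After the GC correction the 3 differences were -1.13, -1.29 and -1.14, and the fit with the block gave -1.19 ± 0.0566. Replicates 1 and 2 alone gave -1.19 ± 0.0529. The size of the ANGPTL4 difference thus moved little between these fits, while its SE differed widely. With the GC correction and no block the SE was 0.328. With unpaired libraries the estimate was -1.92 without SCARNA13 ASO replicate 3 and -0.53 without Control ASO replicate 3.

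Called genes were those with a Benjamini-Hochberg adjusted p below 0.05 over all genes tested by limma-trend. With group as the only term, 0 of the 7 tested members passed, against 0.0% of 10120 genes (173 genes at an unadjusted p below 0.05). With the GC correction and the block, ANGPTL4 passed as lower, 1 of the 7, and none as higher. In that fit 5.21% of 10104 genes passed, 2.15% as lower and 3.06% as higher. In replicates 1 and 2 alone ANGPTL4 passed as lower and PPARD as higher, where 9.11% of genes passed, 4.59% as lower and 4.52% as higher. With the block alone no gene passed. Without pair 1, pair 2 or pair 3, the corrected fit called 19, 7 and 677 genes, ANGPTL4 among them each time. Because ANGPTL4 was chosen with this contrast in view, nothing is read from these calls. Between 28 and 34 genes had a lower estimate than ANGPTL4 in these 3 fits, and the 7 members' median difference was -0.02, 0.03 and 0.03 log2 units, against -0.025, 0.0 and -0.01 over all genes.

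**Figure D2:**
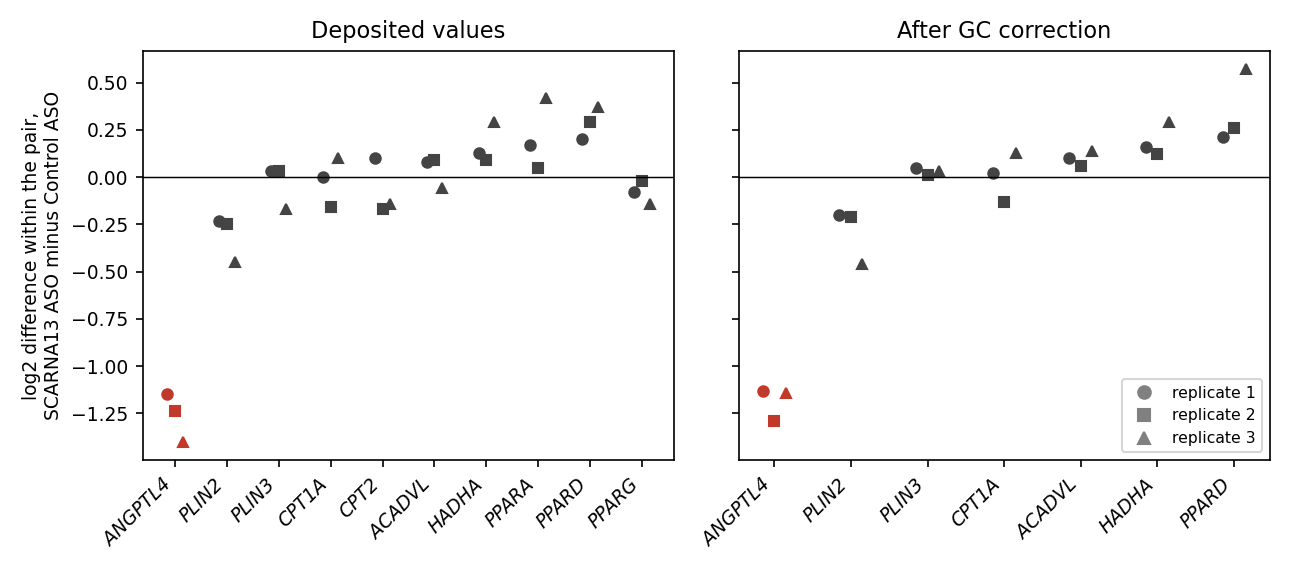
Difference of SCARNA13 ASO minus Control ASO within each replicate pair, on the log2(FPKM + 0.5) scale, for deposited values (left, 10 genes) and after GC correction (right, the 7 genes tested). ANGPTL4, in red, lay between -1.40 and -1.13 in each panel and pair, and PLIN2 between -0.46 and -0.20, while PLIN3, CPT1A and ACADVL lay close to 0.

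ANGPTL4 hardly differed between replicates 1 and 2 of a group and was far higher in replicate 3. Its FPKM in replicate 3 was 4.07 times the mean of replicates 1 and 2 in SCARNA13 ASO cells and 4.63 times in Control ASO cells. In RPM (reads scaled to the total assigned to genes), a scale without the authors' library factor, the same ratios were 2.52 and 2.42. The FPKM scale itself lifts replicate 3, because the library size implied by the deposited values was 0.760 and 0.633 times the read total in the SCARNA13 ASO and Control ASO libraries of replicate 3, and 1.21 to 1.24 times in the other 4. On the RPM scale ANGPTL4 stood at 36.0, 35.8 and 90.4 in SCARNA13 ASO libraries, against 79.9, 86.3 and 200.7 in Control ASO libraries. On both scales replicate 3 was the highest library of each group.

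ANGPTL4 has a GC-rich transcript, at 63.3% over its longest form and in the top decile of genes tested. Genes of that decile had a median deviation from their mean over libraries of 0.76 log2 units in SCARNA13 ASO replicate 3 and 1.05 in Control ASO replicate 3. ANGPTL4 deviated by 0.69 in that SCARNA13 ASO library and by 2.09 in that Control ASO library. These deviations are from the mean over both groups, so they include the difference between the ASOs. After the correction, ANGPTL4 was 16.2, 15.3 and 29.4 FPKM in SCARNA13 ASO libraries against 36.2, 38.2 and 65.3 FPKM in Control ASO libraries, and replicate 3 was still the highest of each group. What sets replicate 3 apart was not tested.

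PLIN3, ACADVL and PPARD have GC contents of 58.4%, 58.8% and 59.0% and were also higher in replicate 3, so ANGPTL4 was set against them within each library. ANGPTL4 over PLIN3 was 0.0893, 0.0860 and 0.200 in SCARNA13 ASO libraries and 0.207, 0.212 and 0.473 in Control ASO libraries. The SCARNA13 ASO ratio was 0.432, 0.405 and 0.422 times the control ratio in the 3 pairs. Against ACADVL the corresponding quotients were 0.416, 0.389 and 0.392, and against PPARD they were 0.382, 0.337 and 0.290. All 3 ratios were higher in replicate 3 than in replicates 1 and 2 of the same group. As ANGPTL4 was chosen for its lower level in this contrast, these ratios restate that choice and are a description.

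**Figure D3:**
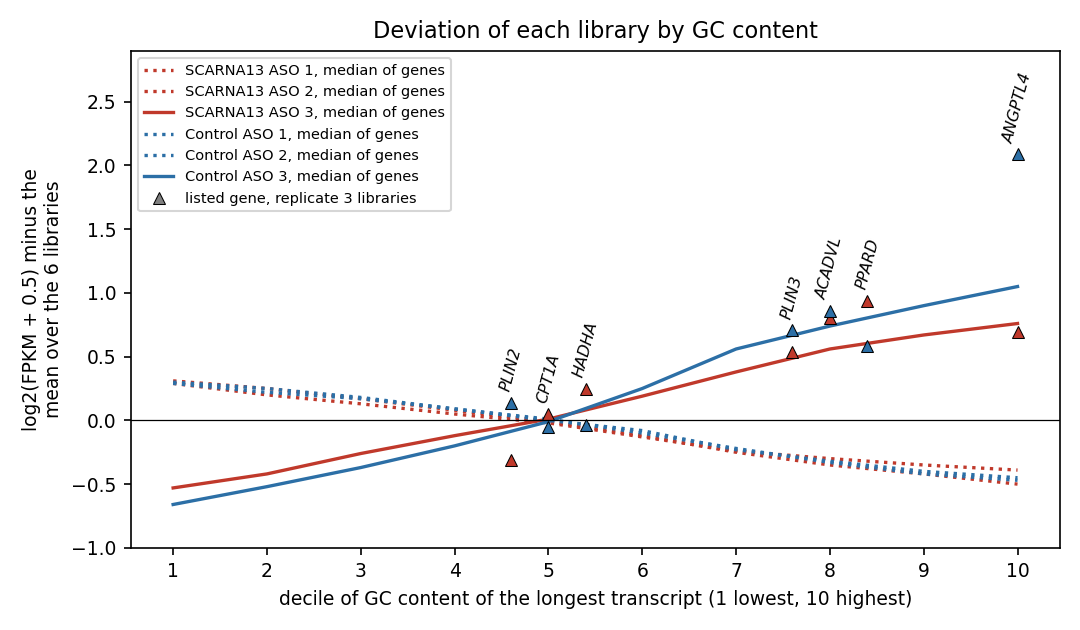
Deviation from the mean over the 6 libraries, in log2 units, by decile of transcript GC content. Lines show the median gene of each library (solid for replicate 3, dotted for replicates 1 and 2; red for SCARNA13 ASO, blue for Control ASO) and triangles show the 7 tested genes in the replicate 3 libraries, spread sideways within a decile for legibility. PLIN3 lay near the line of its decile in both, while ANGPTL4 lay at 0.69 in SCARNA13 ASO replicate 3 and 2.09 in Control ASO replicate 3.

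PLIN2 coats lipid droplets in most cells and its protein persists when droplets are present. PLIN2 (chr9:19108375-19149290, minus strand) had 8.63, 8.27 and 7.08 FPKM in SCARNA13 ASO libraries against 10.2, 9.90 and 9.87 FPKM in Control ASO libraries. On the FPKM scale it was the only 1 of the 7 tested members whose groups did not overlap over all 6 libraries. That direction was shared by 4.44% of genes tested, while 4.0% did not overlap with SCARNA13 ASO higher. Its means were 7.99 ± 0.812 FPKM with the SCARNA13 ASO and 9.98 ± 0.172 FPKM with the Control ASO (SD, n = 3 each), and its GC content was 48.9%. On the RPM scale PLIN2 in replicate 3 was 0.518 times the mean of replicates 1 and 2 in SCARNA13 ASO cells and 0.513 times in Control ASO cells. The groups overlapped on that scale. PLIN2 stood at 54.2, 51.4 and 27.4 RPM in SCARNA13 ASO libraries against 62.6, 61.3 and 31.8 RPM in Control ASO libraries. The estimate was -0.31 ± 0.1701 with group only and -0.29 ± 0.0755 (SE) with GC correction and block. It did not pass in any of these fits. The pair differences of -0.23, -0.25 and -0.45 were all smaller in size than the smallest of ANGPTL4.

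PLIN3, a droplet protein that moves between the cytosol and nascent droplets, was the most abundant member. PLIN3 (chr19:4838341-4867768, minus strand) had 131.6, 137.3 and 240.2 FPKM in SCARNA13 ASO libraries, against 129.0, 134.4 and 269.9 FPKM in Control ASO libraries. The groups overlapped and the pair differences were 0.03, 0.03 and -0.17. After GC correction all 6 libraries lay close together, at 166.3, 168.4 and 165.9 FPKM with the SCARNA13 ASO against 161.1, 167.3 and 162.4 FPKM with the Control ASO, with an estimate of 0.03 ± 0.0486 (SE). PLIN3 exceeded PLIN2 by 15.3, 16.6 and 33.9 times in SCARNA13 ASO libraries and by 12.7, 13.6 and 27.4 times in Control ASO libraries. Of its exonic bases, 17.8% overlap a gene on the other strand, AC027319.1, which drew 4 reads in all SCARNA13 ASO libraries and 0 in Control ASO libraries. Whether the kit marks strand was not tested here. If it does not, reads of overlapping genes cannot be told apart.

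The carnitine transferases carry long-chain fatty acids into mitochondria, CPT1A at the outer membrane as the rate-limiting step and CPT2 at the inner membrane. CPT1A (chr11:68754620-68844410, minus strand) had 7.27, 6.49 and 7.35 FPKM in SCARNA13 ASO libraries against 7.27, 7.29 and 6.80 FPKM in Control ASO libraries. The groups overlapped, the pair differences took both signs, and the estimate was -0.02 ± 0.158 with group only and 0.01 ± 0.0741 (SE) with GC correction and block. CPT2 (chr1:53196429-53214197, plus strand) had 0.913, 0.832 and 0.960 FPKM in SCARNA13 ASO libraries against 0.818, 0.999 and 1.10 FPKM in Control ASO libraries. The groups overlapped here as well, on 663 reads with the SCARNA13 ASO and 689 with the Control ASO. Part of its exons, 1250 bases, overlaps genes on the other strand. Most of these bases are shared with AL606760.2, which drew 1 read in all SCARNA13 ASO libraries and 2 in Control ASO libraries. Only a small part is shared with C1orf123, which drew 2027 and 2021 reads in the same groups. Reads of these genes cannot be told apart from those of CPT2 where they overlap, if the kit does not mark strand.

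ACADVL carries out the initial step of beta-oxidation of long-chain fatty acids, and HADHA is the alpha subunit of the trifunctional protein that performs later steps. ACADVL (chr17:7217125-7225273, plus strand) had 48.3, 51.5 and 113.3 FPKM in SCARNA13 ASO libraries against 45.5, 48.4 and 118.3 FPKM in Control ASO libraries. The groups overlapped, and the GC-corrected estimate with block was 0.10 ± 0.0477 (SE). HADHA (chr2:26190635-26244726, minus strand) had 21.0, 19.5 and 24.1 FPKM in SCARNA13 ASO libraries against 19.1, 18.3 and 19.6 FPKM in Control ASO libraries. It was higher in each pair, by 0.13, 0.09 and 0.29 log2 units, and the groups overlapped by a narrow margin, since the lowest SCARNA13 ASO library was below the highest control. Its estimate was 0.17 ± 0.195 with group only and 0.19 ± 0.0576 with GC correction and block, and it did not pass in either. PPARD had 0.28 ± 0.466 and 0.35 ± 0.0856 (SE) in the same fits and did not pass in them.

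The 5 genes whose pattern across the 6 libraries most resembled that of ANGPTL4 included none of the other members ranked. CPT2, PPARA and PPARG averaged under 5 FPKM and were not ranked. The measure compares the pattern and not the size of the differences. Pearson's r of log2(FPKM + 0.5) was highest for NCAPD2 at 0.9966, a condensin subunit, among 4879 protein-coding genes averaging 5 FPKM or more. NSDHL, an enzyme of cholesterol synthesis, followed at 0.9964. EIF4A3 of the exon junction complex had 0.9962, UTP4 of ribosome biogenesis 0.9960, and the small GTPase ARF3 0.9955. NCAPD2 had 40.2, 38.8 and 61.7 FPKM in SCARNA13 ASO libraries against 53.4, 52.0 and 82.5 FPKM in Control ASO libraries. Among members, PLIN3 had r = 0.861, ACADVL 0.824 and PPARD 0.671, and PLIN2 0.188, HADHA 0.114 and CPT1A 0.0384. These values describe 6 libraries that share the replicate 3 shift. After GC correction FKBP4 and NCAPD2 led at 0.997 and 0.9951 among 4877 genes, followed by NFKBIE, JMJD6 and IER2. PLIN2 then had r = 0.512, and PLIN3 -0.668.

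Around the members, 147 other genes in 10 lists covered fatty acid uptake, oxidation, droplets, lipoprotein lipase, PPAR partners and targets, and the hypoxia and glucocorticoid responses. Of these, 76 were tested, and 18 had 0 reads in each library. With group only, 0 of the 76 passed. With GC correction and block, 5 rose and 2 fell, or 6.58% and 2.63% of them, beside 3.06% and 2.15% of all genes, with a median of 0.02 against 0.0. In replicates 1 and 2 alone, 7 rose and 5 fell, or 9.21% and 6.58%, beside 4.52% and 4.59% of all genes. None passed when pair 1 or pair 2 was left out of the corrected fit, and 8 passed without pair 3. The lists were chosen with earlier results of these data known and are not independent evidence.

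In the list of lipid droplet and lipolysis genes, 1 of 11 tested genes fell and 1 rose. G0S2, an inhibitor of the triglyceride lipase PNPLA2, had 113.4, 113.0 and 146.9 FPKM in SCARNA13 ASO libraries against 198.2, 205.4 and 241.5 FPKM in Control ASO libraries. The groups did not overlap, and G0S2 fell by 0.73 ± 0.0791 log2 units (SE) with GC correction and block. MGLL, which splits monoacylglycerol, had 6.09, 6.15 and 8.87 FPKM in SCARNA13 ASO libraries against 4.58, 4.21 and 5.64 FPKM in Control ASO libraries. MGLL rose by 0.56 ± 0.0984, again with no overlap. The other 9 tested genes of the list did not pass, among them ABHD5, the activator of PNPLA2, at 0.47, and HILPDA, an inhibitor of the same lipase, at -0.28. PNPLA2 itself stood at -0.05.

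The fatty acid transporter SLC27A1 rose by 0.47 ± 0.0730 with GC correction and block, 1 of 7 tested genes of uptake and activation, while SLC27A2 of the same family was at -0.35 and did not pass. SLC27A2 and ACADS passed as lower in replicates 1 and 2 alone. ECI1, an isomerase for unsaturated fatty acids, rose by 0.47 ± 0.0639, 1 of 13 in mitochondrial beta-oxidation, where the list median was 0.16. DECR1 at 0.54, ETFA at 0.39 and ACADS, the short-chain dehydrogenase, at -0.31 did not pass. UCP2, a carrier of the mitochondrial inner membrane, rose by 0.45 ± 0.0784, 1 of 9 in the list of other PPAR targets.

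Among genes of the hypoxia response, to which ANGPTL4 also belongs, LDHA, which converts pyruvate to lactate, fell by 0.33 ± 0.0488, the only 1 of 9 that passed with GC correction and block. The list median was -0.15. ANKRD37 at -0.56, NDRG1 at 0.36 and VEGFA at 0.12 did not pass and took both signs. In the same fit no gene passed among 5 of the glucocorticoid response, with PER1 at -0.35 and DUSP1 at 0.31, although PER1 passed as lower and DUSP1 as higher in replicates 1 and 2 alone. None passed with GC correction and block among 10 of peroxisomal oxidation, or 12 PPAR partners, where PPRC1 was at -0.21. RXRA, a retinoid X receptor that partners PPARs, was at 0.19, and RXRB of the same family at -0.04. RXRB averaged 43.7 FPKM with the SCARNA13 ASO and 49.7 FPKM with the Control ASO, against 5.17 and 4.68 FPKM for RXRA.

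Several genes that act with ANGPTL4 or that PPARA is known to switch on had no or few reads. LPL, the lipase that ANGPTL4 inhibits, and the related lipase LIPG had 0 reads in each library, as did the PPARA targets FABP1, FGF21 and CYP4A11. At 3 reads, the limit that a count of 0 allows was 0.119 to 0.147 RPM in a library. PDK4, another PPAR target, had 6 reads in all SCARNA13 ASO libraries and 0 in Control ASO libraries, and PPARGC1A, a coactivator, had 3 and 1 in the same groups. Only 2 of 17 lipoprotein lipase and angiopoietin-like genes were tested. FURIN, a protease that cleaves ANGPTL4, was at -0.19 and LMF1, needed for lipase folding, at 0.27, and neither passed. In bulk RNA, fewer cells with a transcript and less of it per cell cannot be told apart.

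**Figure D4:**
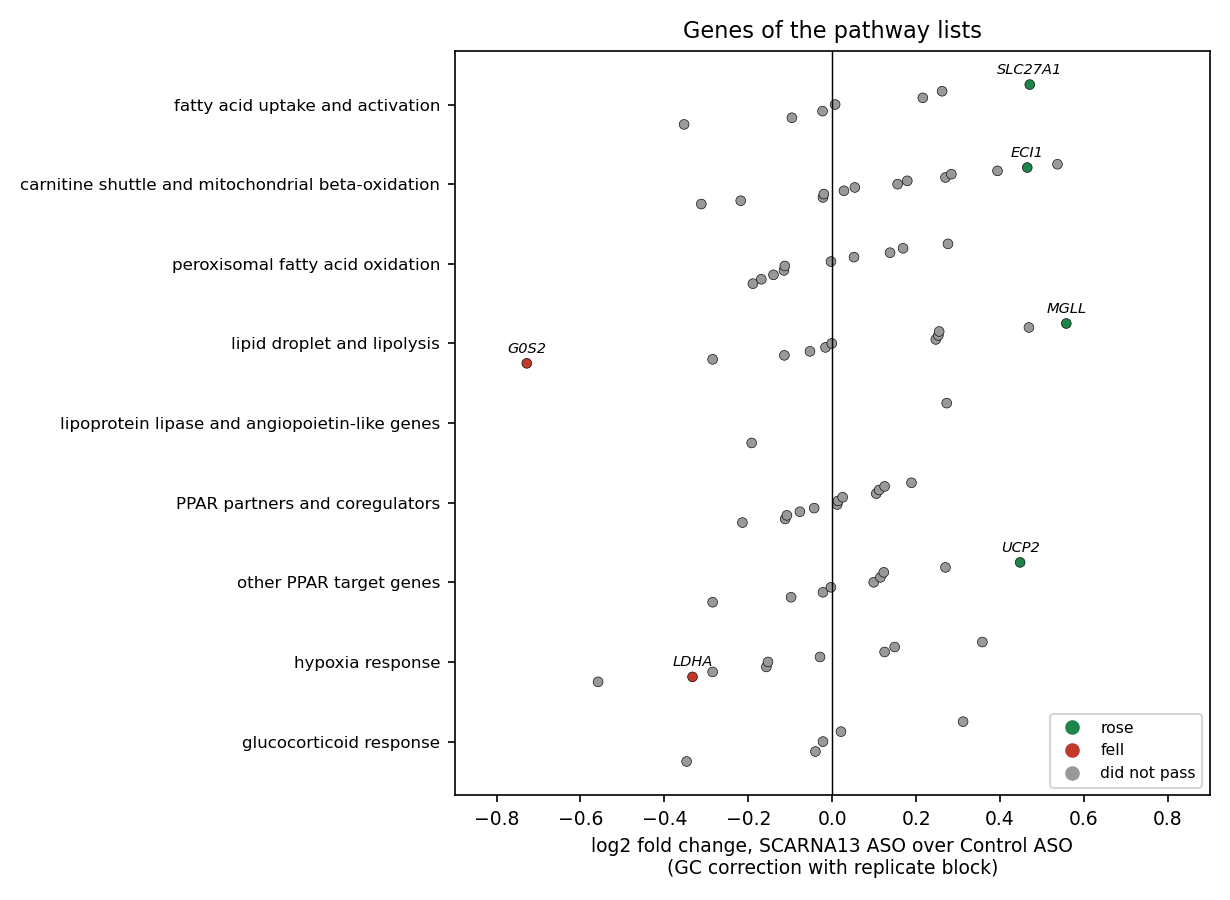
Estimated log2 fold change, SCARNA13 ASO over Control ASO, of each tested gene of 9 of the pathway lists in the fit with GC correction and replicate block. Green points rose, red points fell and grey points did not pass; 4 of the genes shown rose and 2 fell, and G0S2 at -0.73 was the lowest point.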

How the data were processed

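RNA from HCCLM3 cells was made into libraries from 1 µg of total RNA with an Illumina TruSeq kit, per the labels' protocols. The deposited files give 1 value per gene and library with no unit. The values were read as FPKM made by the authors, since multiplying by gene length and dividing by 1 factor per library gave whole reads (100% at a tolerance of 0.01 reads). The implied library sizes matched a median-of-ratios scaling. TopHat2 2.0.9, Bowtie2 2.0.6 and hg19 appear in the submitters' processing notes without a stated role, while positions in the files are GRCh38, where 97.6% of 58039 gene identifiers had the start and end of GENCODE 29. The counting tool is not given in the sources used here.

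Members and lists were chosen with earlier results of these data known. Genes averaging 1 FPKM or more were tested by limma-trend 3.58.1 in R 4.3.3 on log2(FPKM + 0.5), which understates changes of low genes, with group as the only term and Benjamini-Hochberg adjustment, two-sided. Same-numbered libraries deviated together across genes (correlations of 0.84, 0.78 and 0.91), so the numbers were taken as pairs. Crossed pairs of replicates 1 and 2 reached 0.81, so the values set apart only replicate 3. The GC correction subtracted a loess trend (span 0.5) of each library's deviation on the GC content of the longest transcript. Of each list, genes that passed and up to 4 with the smallest p in the corrected fit could be named, with the 5 genes most like ANGPTL4. Genes named for having 0 or few reads, and VEGFA, PNPLA2, PDGFRB and RXRB, were chosen after their values were seen. The fits were tested on simulated reads in which same-numbered libraries of both groups shared the same profile. That setting builds in the pairing, so it cannot show whether the pairing holds in these data. Alternatives changed the pseudocount, filter, scaling, block and libraries. The figures on depth cover counting error only. Promoter sequences are RefSeq's. Values of some listed genes are not reported here.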

Additional observations from a re-analysis of the deposited data

How the results depend on the processing

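ANGPTL4 was lower with the SCARNA13 ASO in 22 of 22 settings, from -1.92 without SCARNA13 ASO replicate 3 to -0.53 without Control ASO replicate 3, and passed in 6 of them. ANGPTL4 was chosen with its lower level in this contrast known. The settings also share libraries, and those that change only the block or the filter cannot move an estimate. These tallies of sign are therefore a description. PLIN2 was lower in 22 of 22 (-0.36 to -0.21) and HADHA higher in 22 of 22 (0.09 to 0.27), never passing. PPARD was higher in 21 of 22, the exception being -0.12 without SCARNA13 ASO replicate 3. ACADVL was higher in 19 of 22 (-0.36 to 0.48). PLIN3 (-0.31 to 0.31) and CPT1A (-0.08 to 0.08) took both signs. With the replicate block alone, as with group only and with voom on recovered reads, 0 genes passed (2598, 173 and 162 at an unadjusted p below 0.05). Leaving out any single library gave 0 calls throughout. GC correction without a block also called 0 genes (966 at an unadjusted p below 0.05), while GC correction with replicate block, which uses the pairing, called 526 genes, 1 member and 7 list genes. Replicates 1 and 2 alone called 922, 2 and 12, and 453 genes were shared by both. The following were added after the data were seen. Equal read totals with the block called 213, 1 and 2. In the GC-corrected block fit, pairs 2 and 3 called 19, 1 and 0, pairs 1 and 3 called 7, 1 and 0, and pairs 1 and 2 called 677, 1 and 8, the single member being ANGPTL4 each time. No list gene passed in the block fits that lacked pair 1 or pair 2. No setting moved the median of all genes by over 0.1 log2 units. Members with few reads (PPARA, PPARG, CPT2) and SCARNA13 are limited by their low read counts.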
